A study of Mus musculus with 18 samples.

Results

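The miR-15, miR-16, miR-195 and miR-497 family is a set of mouse microRNAs (miRNAs) made from 3 pairs of neighbouring hairpins. Its members were taken by name from the mature miRNAs of miR-15a, miR-15b, miR-16, miR-195a and miR-497a in the expression tables. Not every listed strand was taken, as miR-15a-3p and miR-195a-3p are listed too and are not members. The members were named without use of a measured value, although the family was picked with earlier results of these data known. They are 8 of the 1359 distinct mature miRNAs listed, namely mmu-miR-15a-5p, mmu-miR-15b-5p, mmu-miR-15b-3p, mmu-miR-16-5p, mmu-miR-16-1-3p, mmu-miR-16-2-3p, mmu-miR-195a-5p and mmu-miR-497a-5p (mmu for mouse, left out of most names from here on). All 8 are listed in every table.

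Small RNA sequencing covered 18 libraries in 8 groups, all labelled with the strain Eu-myc, mice that carry a Myc transgene under the immunoglobulin heavy-chain enhancer, which acts in B-lineage cells. Mouse embryonic fibroblasts (MEF) had the miR-17~92 cluster overexpressed (OV), floxed and intact (fl/fl) or deleted (d/d), with 3 libraries each. A second MEF set was deleted for miR-17~92 in both of its groups and carried either an empty plasmid (Empty) or overexpressed miR-290~295, again with 3 libraries each. Splenic B cells had the same 3 levels of miR-17~92, with 1 library each and so no replicate check. The labels call the cells isogenic, and do not say what drives the overexpression, how the deletion was made, or whether libraries of a group came from separate cultures, so p-values measure the spread between these libraries, which may be technical.

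A miRNA hairpin yields a 5p and a 3p strand, and the strand that is loaded into Argonaute finds target messenger RNAs mainly through its seed, bases 2 to 8. The 5p strands here share a seed and are known as brakes on proliferation and survival, with cyclins, cyclin-dependent kinases and BCL2 among their targets. The miR-15a and miR-16-1 locus lies in the Dleu2 gene and is the counterpart of a human locus often deleted in chronic lymphocytic leukaemia, and MYC is known to repress its transcription. The miR-17~92 cluster is itself a MYC target that promotes proliferation, which places this family on the opposite side of MYC in B-cell lymphoma.

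The mature sequences (RefSeq, GRCm38.p6) are shown because the shared seed decides which miRNAs can be added together and because near-identical strands limit how reads can be assigned. Capitals mark bases 2 to 8.
miR-15a-5p: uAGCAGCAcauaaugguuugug
miR-15b-5p: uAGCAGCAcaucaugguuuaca
miR-16-5p: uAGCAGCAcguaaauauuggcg
miR-195a-5p: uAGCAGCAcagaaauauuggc
miR-497a-5p: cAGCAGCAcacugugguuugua
miR-322-5p: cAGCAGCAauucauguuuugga
miR-503-5p: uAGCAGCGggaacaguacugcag
miR-15b-3p: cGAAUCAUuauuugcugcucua
miR-16-1-3p: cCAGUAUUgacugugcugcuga
miR-16-2-3p: aCCAAUAUuauugugcugcuuu

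The 5 members that are 5p strands have the same 7 seed bases, the 3 that are 3p strands have a different seed each, and miR-503-5p differs from the shared seed in its last base. Of 10 RefSeq mouse miRNAs with this seed, 6 are listed in the tables, the 5 members and miR-322-5p, a non-member from the X chromosome. miR-16-5p and miR-195a-5p are identical at 19 of 21 positions and miR-15a-5p and miR-15b-5p at 18 of 22, so reads with errors or trimmed ends could be assigned to the wrong one, and values of the rarer strand of each pair are uncertain to that extent. The 2 passenger strands of miR-16, miR-16-1-3p and miR-16-2-3p, match at 12 of 22 positions when compared without gaps. Matches with a shift or a gap were not counted, nor those with miR-195a-3p. Wrong assignment may thus touch these strands too.

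The hairpins that give miR-16 show why its 5p strand has 1 value while its 3p strands have 2. Capitals mark the 5p and 3p strands.
Mir16-1: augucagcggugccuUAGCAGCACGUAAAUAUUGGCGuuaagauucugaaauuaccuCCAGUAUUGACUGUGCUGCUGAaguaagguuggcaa
Mir16-2: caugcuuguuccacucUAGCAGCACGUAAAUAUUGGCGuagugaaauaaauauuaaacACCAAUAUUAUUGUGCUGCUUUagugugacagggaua
Both hairpins hold the same 5p strand, so the miR-16-5p value is a sum over 2 loci, while each 3p strand reports on 1 locus.

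In the GENCODE vM21 annotation (GRCm38), Mir15a lies at chr14:61632027-61632110 on the minus strand in an intron of Dleu2. Mir16-1 lies at chr14:61631880-61631972, 54 bases away, over an exon of at least 1 Dleu2 transcript. Mir15b (chr3:69009772-69009835) and Mir16-2 (chr3:69009902-69009996) lie 66 bases apart on the plus strand in an intron of Smc4, which encodes a condensin subunit. Mir497 (chr11:70234717-70234800) and Mir195a (chr11:70235042-70235135) lie 241 bases apart on the plus strand and in no other gene of that annotation.

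Depth ran from 17191892 to 24920911 reads per library in the first MEF set, from 43164128 to 58911475 in the second and from 10203586 to 10612256 in B cells. Values are normalised read counts, that is reads divided by 1 size factor per library, and they compare only within a set, so levels across sets are given as RPM, reads scaled to a library total of 1000000. The labelled cell types were checked against marker miRNAs. The 7 fibroblast and mesenchymal markers (miR-199a, miR-214, miR-143, miR-145a, miR-10b and miR-196a strands) summed to 39428 to 83643 RPM in MEF and to 195.2 to 1138 in B cells. The 4 blood cell markers (miR-142a strands, miR-150-5p and miR-155-5p) summed to 10380 to 18019 in B cells and to 219 to 529 in MEF, although miR-150-5p, a marker of mature lymphocytes, reached only 8.73, 62.2 and 71.0 normalised counts in d/d, fl/fl and OV B cells. The myeloid miR-223-3p was not listed in MEF and was at 15.9, 0 and 1.34 in those B cells. Markers of other cell types differed as well. The listed epithelial markers summed to 692 to 1465 RPM in B cells and to 3.57 to 14.7 in MEF. The endothelial miR-126a strands summed to 336 to 538 and 55.6 to 115, and the listed neural markers to 4193 to 7113 and 380 to 826. The listed muscle markers were lower in B cells, at 2.35 to 21.9 against 950 to 1884 in MEF. Of the 3 erythroid markers miR-144-3p was not listed and miR-451a was at 0 in 11 of 15 MEF libraries, while miR-486a-5p, which muscle also makes, was at 381 to 547 RPM in OV MEF and 138 to 259 in fl/fl MEF, without overlap. The muscle (1315 to 1596 against 1775 to 1884), neural (539 to 612 against 704 to 826) and epithelial sums (8.15 to 10.6 against 13.9 to 14.7) were lower in OV, without overlap. The fibroblast, blood cell and endothelial sums of OV and fl/fl MEF overlapped. Of single miRNAs, 48.6% had no overlap in this comparison.

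Levels of the 8 members ran from 1.20 to 282 RPM in MEF and from 0.686 to 1072 in B cells. mmu-miR-16-5p held 103 to 277 RPM in the 15 MEF libraries and 619 to 1072 in the 3 B-cell libraries, placing it at rank 116 to 169 of the listed miRNAs in MEF and 60 to 69 in B cells. mmu-miR-16-1-3p, a strand usually treated as the passenger, was in a like range, at 186 to 282 in MEF and 535 to 627 in B cells. The chromosome 3 hairpin of miR-15b gave 15.5 to 37.3 RPM of its 5p strand and 24.7 to 62.8 of its 3p strand in MEF, against 70.5 to 129 and 63.1 to 129 in B cells. mmu-miR-15a-5p (2.07 to 6.21 in MEF, 29.8 to 53.0 in B cells) and mmu-miR-16-2-3p (2.35 to 6.37 and 7.92 to 10.4) were far lower. The chromosome 11 pair was rare throughout, mmu-miR-195a-5p at 1.34 to 9.65 in MEF and 0.882 to 4.82 in B cells, and mmu-miR-497a-5p at 1.20 to 4.84 and 0.686 to 6.24.

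**Figure D1:**
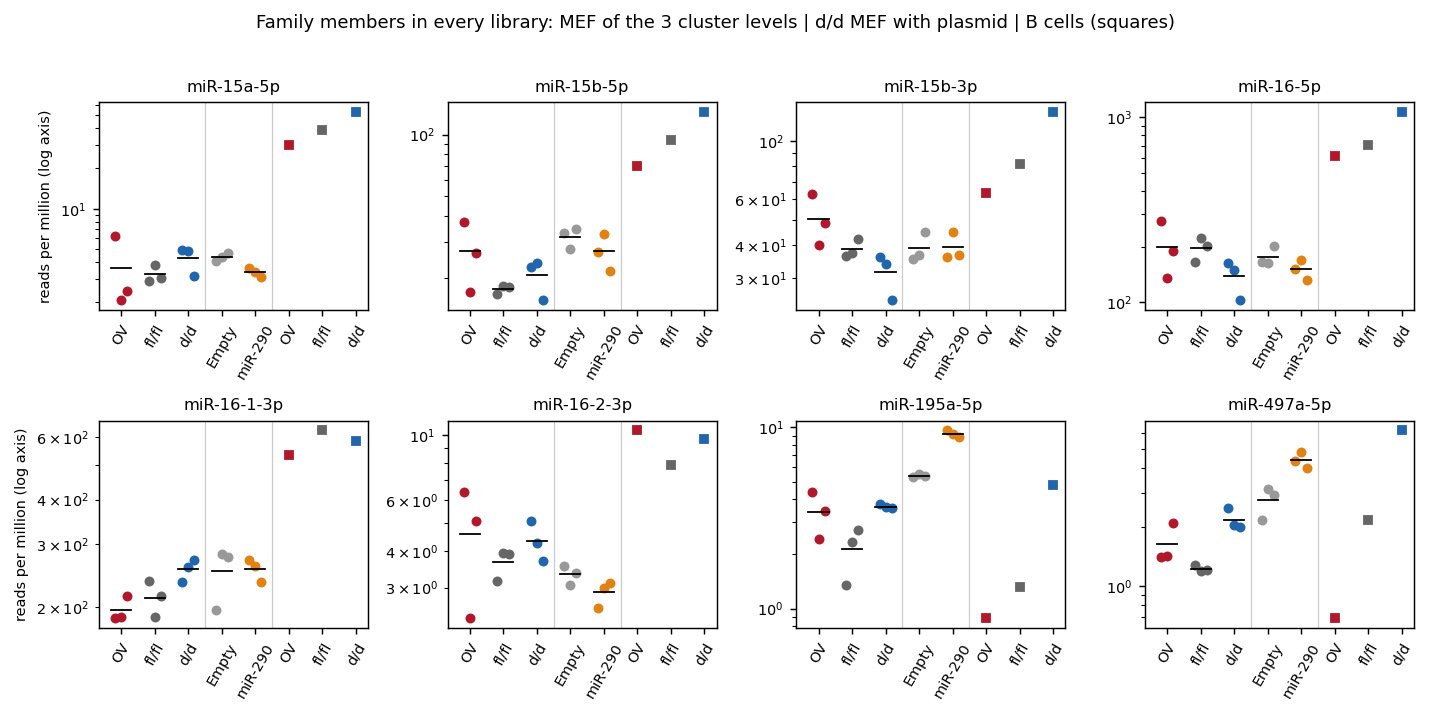
RPM, reads scaled to the same library total (log axis, a separate range in each panel) of each family member in every library, by group; circles are MEF, squares are B cells, and black lines are means of 3 libraries. The 6 members from chromosomes 14 and 3 sit highest in B cells, whereas miR-195a-5p is highest in the 3 MEF libraries with miR-290~295, at 8.82 to 9.65.

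Ordered by RPM, the 3 B-cell libraries were above every MEF group mean for all 6 members of the chromosome 14 and 3 loci. Among the 5 MEF groups, neighbours in that order overlapped for 5 of the 6, and for miR-15b-3p the d/d group (24.7 to 36.1) lay below the fl/fl group (36.5 to 42.5) without overlap. The gap between cell types was widest for miR-15a-5p, at 53.0, 39.1 and 29.8 in d/d, fl/fl and OV B cells against 4.37 ± 0.31 (SD, n = 3) in Empty MEF, the highest MEF group. It was narrowest for miR-15b-3p, whose OV B-cell library (63.1) stood next to the highest OV MEF library (62.8). Cell type, sequencing set and library cannot be told apart here, and no test was made across sets.

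miR-195a-5p had another order. It was highest in miR-290~295 MEF (9.23 ± 0.41, SD, n = 3), followed without overlap by Empty MEF (5.40 ± 0.10) and then by d/d B cells (4.82, 1 library). The d/d MEF (3.65 ± 0.10) and OV MEF (3.41 ± 0.98) overlapped, as did OV and fl/fl MEF (2.13 ± 0.70), and the fl/fl and OV B-cell libraries were lowest at 1.32 and 0.882. miR-497a-5p led in d/d B cells (6.24), followed by miR-290~295 MEF (4.39 ± 0.43), Empty MEF (2.74 ± 0.50) and d/d MEF (2.19 ± 0.27), the last 2 overlapping, and it was lowest in OV B cells (0.686).

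The comparison of miR-17~92 levels in MEF asked which miRNAs move when the cluster is raised or removed. With OV against fl/fl, 0 of 8 members passed (limma, Benjamini-Hochberg adjusted p under 0.05), where 31.3% of the 662 miRNAs tested did (15.6% higher and 15.7% lower). By edgeR and by DESeq2 the count was also 0, and at an unadjusted p under 0.05 it was 1, miR-195a-5p. Without FL5 the number of all miRNAs that passed was 124 in place of 207, and without OV2 the number of members was 1. With d/d against fl/fl, 2 of 8 passed against a background of 58.3%, miR-16-5p lower (background 27.6%) and miR-497a-5p higher (30.7%). That count was 3 without OV1, OV2 or OV4, 1 without FL3, FL5 or DEL3, and 0 without FL4, DEL1 or DEL2. With OV against d/d, 1 of 8 passed against 52.4%, miR-15b-3p higher (26.7% higher and 25.7% lower over all miRNAs), and the count was 2 without OV1 or DEL1 and 3 without OV2. These 3 comparisons share their libraries in pairs. The median log2 difference over the members was 0.25, 0.13 and 0.00 in that order, beside -0.07, 0.02 and 0.02 over all miRNAs tested. Each share of members was below its background.

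**Figure D2:**
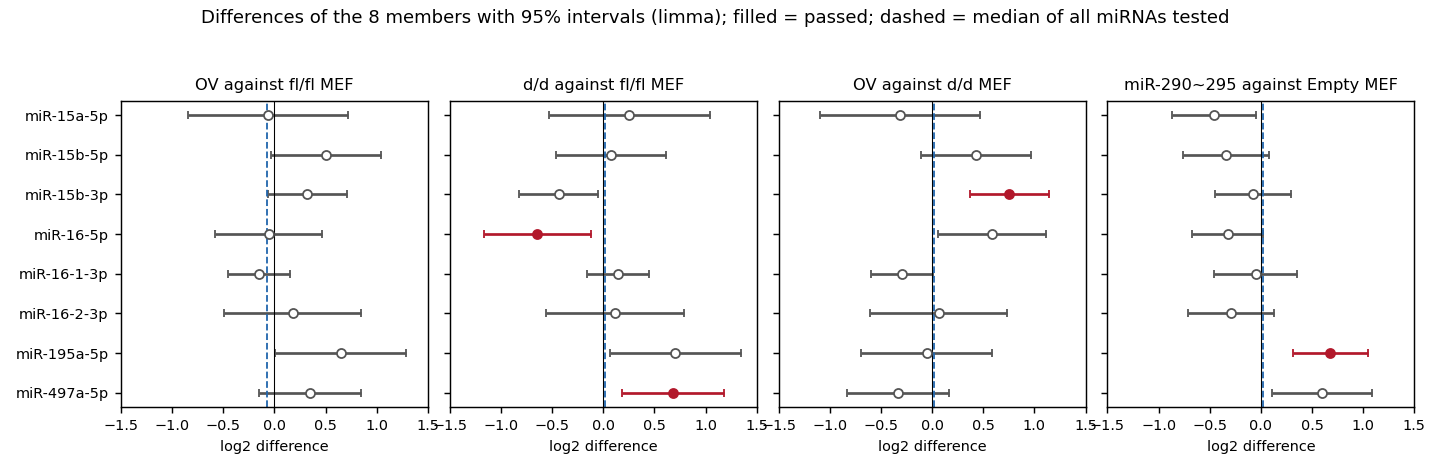
Log2 differences of the 8 members in the 4 MEF comparisons, with 95% intervals from limma; filled points passed at an adjusted p under 0.05, and the dashed line is the median of all miRNAs tested. Most intervals include 0, and the 4 filled points are miR-16-5p and miR-497a-5p (d/d against fl/fl), miR-15b-3p (OV against d/d) and miR-195a-5p (miR-290~295 against Empty).

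miR-16-5p, the main 5p strand of the family, was at 3147, 4452 and 3955 normalised counts in the fl/fl libraries FL3, FL4 and FL5. It was at 2750, 2708 and 1951 in the d/d libraries DEL1, DEL2 and DEL3, and at 5085, 2705 and 3569 in the OV libraries OV1, OV2 and OV4. Every d/d library lay below every fl/fl library, whereas the OV libraries spanned both. miR-16-5p fell in d/d against fl/fl by 0.64 on the log2 scale (SE 0.24, adjusted p = 0.0370), which is 1.56-fold lower, and the OV difference from fl/fl was -0.06 (95% interval -0.58 to 0.47, adjusted p = 0.847). The d/d call kept its direction but was lost without FL4, FL5, DEL1, DEL2 or DEL3 (adjusted p 0.0512 to 0.133) and in limma without the trend (adjusted p = 0.0600), and held without FL3. In OV against d/d the difference of miR-16-5p was 0.59 (SE 0.24, adjusted p = 0.0595), which did not pass. It passed with spike-in scaling (1.15, adjusted p = 0.00153) and with re-centred medians (0.74, adjusted p = 0.0107). It also passed by edgeR, by DESeq2 and without OV2 (adjusted p 0.0142 to 0.0368), and not under the other alternatives. Some marker sums of other cell types were also lower in d/d than in fl/fl without overlap. The 4 blood cell markers were at 219 to 333 against 405 to 436 RPM and the 2 endothelial miR-126a strands at 55.6 to 57.6 against 104 to 115. The 2 listed muscle markers were at 1083 to 1189 against 1775 to 1884, and the 6 listed epithelial markers at 3.57 to 5.89 against 13.9 to 14.7. Of single miRNAs, 68% had no overlap in this comparison. The fibroblast sums overlapped, at 70399 to 79927 and 59080 to 77687. So did the neural sums (697 to 803 and 704 to 826) and those of the listed erythroid markers (180 to 191 and 138 to 259). The part of these markers in the d/d differences was not tested.

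miR-15b-5p, the 5p strand of the Smc4 locus, was at 316 to 368 normalised counts in fl/fl, 296 to 428 in d/d and 340 to 685 in OV, and the groups overlapped. Its log2 difference was 0.50 in OV against fl/fl (95% interval -0.03 to 1.04, adjusted p = 0.129) and 0.08 in d/d against fl/fl (-0.46 to 0.61, adjusted p = 0.801). In OV against fl/fl it passed without OV2 (0.77, adjusted p = 0.0206). miR-15a-5p, the 5p strand of Mir15a in the Dleu2 locus, was at 55.2, 75.6 and 59.3 in fl/fl, 81.7, 87.2 and 59.5 in d/d, and 114, 41.2 and 46.1 in OV. Within OV, OV1 was thus far above the other 2 libraries, which lay below every fl/fl and d/d library. Its OV difference from d/d was -0.32 (95% interval -1.10 to 0.47, adjusted p = 0.490), and without OV1 it passed as lower in OV (-0.77, adjusted p = 0.0213).

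OV1 was also the highest OV library for miR-15b-5p, miR-15b-3p, miR-16-5p, miR-16-2-3p and miR-195a-5p, and the lowest for miR-16-1-3p (3410 against 3734 and 4061) and miR-497a-5p (25.8 against 28.6 and 39.5). It was the deepest OV library, at 18510535 reads against 17431378 and 17191892, and the part of depth in these values was not tested.

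Among the 3p strands, miR-15b-3p changed. It was at 1153, 798 and 917 normalised counts in OV1, OV2 and OV4, at 696, 750 and 828 in FL3 to FL5 and at 606, 615 and 470 in DEL1 to DEL3. The OV and fl/fl groups overlapped, and d/d lay below both. miR-15b-3p was higher in OV than in d/d by 0.76 on the log2 scale (SE 0.17, 1.69-fold, adjusted p = 0.00382), a call that held under every alternative tried (adjusted p 6.79e-05 to 0.0162). Its d/d difference from fl/fl was -0.43 (SE 0.17, adjusted p = 0.0529), which passed under 8 alternatives, with spike-in scaling (-0.86, adjusted p = 0.00159), with re-centred medians (-0.72, adjusted p = 0.00282), with a minimum mean of 100, by DESeq2, when the 2 groups were fitted alone, and without OV1, OV2 or OV4 (adjusted p 0.0181 to 0.0437 in these last 6).

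miR-16-1-3p, from the Dleu2 locus, was at 3752 to 4495 in fl/fl, 3948 to 5142 in d/d and 3410 to 4061 in OV, with overlap between all groups. Its log2 difference was 0.14 in d/d against fl/fl (95% interval -0.16 to 0.45, adjusted p = 0.384), opposite in sign to that of miR-16-5p, although this sign turned in the spike-in scaled table (-0.29, adjusted p = 0.139) and with re-centred medians (-0.14). miR-16-2-3p, from the Smc4 locus, was at 60.4 to 79.0 in fl/fl, 70.2 to 85.3 in d/d and 46.9 to 117 in OV. Its 95% interval of the log2 difference was -0.56 to 0.79 for d/d and -0.50 to 0.85 for OV against fl/fl.

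The chromosome 11 pair gave the only member that passed as higher after deletion. miR-497a-5p was at 24.6, 24.1 and 23.5 normalised counts in FL3 to FL5, at 41.9, 37.0 and 38.3 in DEL1 to DEL3, and at 25.8, 28.6 and 39.5 in OV1, OV2 and OV4. The fl/fl libraries were the lowest of all 9, without overlap with d/d or OV. miR-497a-5p rose in d/d by 0.68 on the log2 scale (SE 0.22, 1.60-fold, adjusted p = 0.0240), on 21 to 59 reads per library. This call was lost in the spike-in scaled table (0.26, adjusted p = 0.330), with re-centred medians (0.39, adjusted p = 0.232), and without FL3, FL4, FL5, DEL1 or DEL2 (adjusted p 0.0513 to 0.0685). With no minimum mean it was lost as well (adjusted p = 0.0664).

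miR-195a-5p was at 25.6, 47.0 and 52.6 in FL3 to FL5, at 63.3, 65.4 and 68.0 in DEL1 to DEL3 and at 80.4, 48.1 and 64.8 in OV1, OV2 and OV4. The d/d libraries were all above the fl/fl libraries, with the low FL3 value widening the fl/fl spread. The log2 difference was 0.70 in d/d (SE 0.29, adjusted p = 0.0570) and 0.65 in OV (SE 0.29, adjusted p = 0.106). The other strand of the same hairpin, miR-195a-3p, is no member by name and had more reads, at 290 to 319 normalised counts in fl/fl, 585 to 679 in d/d and 347 to 771 in OV. It rose in d/d (1.02, SE 0.24, adjusted p = 0.00446) and in OV (0.77, SE 0.24, adjusted p = 0.0361), and the OV call was lost with re-centred medians (0.64, adjusted p = 0.0932) and when any library but OV1 or DEL3 was left out (adjusted p 0.0534 to 0.0941). The OV call was also lost in limma without the trend (adjusted p = 0.0556) and with the 2 groups fitted alone (adjusted p = 0.0728).

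The second MEF set asked what miR-290~295, whose main products have a seed close to that of part of miR-17~92, changes in cells without miR-17~92. Of the members 1 of 8 passed, miR-195a-5p, against a background of 38.9% of 840 miRNAs (16.7% higher and 22.3% lower). The count was 2 without E1. miR-195a-5p was at 257.5, 287 and 273 normalised counts in E1 to E3 and at 457, 432 and 421 in the 3 libraries with miR-290~295. The groups did not overlap, and the spread within each was small. miR-195a-5p rose by 0.68 on the log2 scale (SE 0.16, 1.60-fold, adjusted p = 0.00947). In the spike-in scaled table the difference was 0.20 (adjusted p = 0.489).

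Its hairpin partner and its genomic neighbour had differences of the same sign. miR-195a-3p went from 3331, 3000 and 2409 to 4940, 5058 and 5077 and rose by 0.80 (SE 0.16, adjusted p = 0.00361; with spike-in scaling the difference was 0.32, adjusted p = 0.237). miR-497a-5p was at 106, 163 and 147 in E1 to E3 and at 206, 227 and 190 with miR-290~295, without overlap, and its difference of 0.60 (SE 0.22) had an adjusted p of 0.0567. With spike-in scaling that difference was 0.12 (adjusted p = 0.742), and by DESeq2 it passed (0.60, adjusted p = 0.0331). The summed level of the 7 fibroblast markers was lower with miR-290~295, at 39428 to 45577 RPM against 61099 to 83643 in Empty. The muscle markers were also lower without overlap, at 950 to 1109 against 1236 to 1721, as were the endothelial miR-126a strands, at 63.3 to 71.5 against 76.2 to 85.1. The blood cell, neural, epithelial and erythroid sums overlapped. Of single miRNAs, 49.6% had no overlap in this comparison. The part of these markers in the differences was not tested.

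The other 6 members had negative log2 differences with miR-290~295, none of which passed. miR-15a-5p was at 197, 228 and 237 in E1 to E3 and 172, 159 and 148 with miR-290~295, without overlap (-0.46, SE 0.18, adjusted p = 0.0740). miR-16-5p was at 8007, 8520 and 10235 against 7149, 7920 and 6296, again without overlap (-0.32, SE 0.15, adjusted p = 0.124). miR-15b-5p differed by -0.34, miR-16-2-3p by -0.30, miR-15b-3p by -0.08 and miR-16-1-3p by -0.05. In the spike-in scaled table all 6 passed as lower, from -0.54 for miR-16-1-3p to -0.94 for miR-15a-5p, and the median over all miRNAs tested there was -0.46 instead of 0.02. Relative to the median of its own table, miR-15a-5p was at -0.48 in the main table and at -0.49 with spike-in scaling, and miR-195a-5p at 0.66 and 0.65. The share of all calls that were lower also moved, from 187 of 327 to 331 of 387.

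The other tables scaled by spike-ins shifted as well. The median over all miRNAs was -0.39 for d/d against fl/fl (147 higher and 283 lower, in place of 203 and 183), 0.60 for OV against d/d (333 and 120, in place of 177 and 170) and 0.07 for OV against fl/fl (112 and 44, in place of 103 and 104). In the first of these the 2 members that passed were both lower, miR-15b-3p and miR-16-5p (-1.07, adjusted p = 0.00250).

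Composition of the shared seed does not depend on scaling between libraries. Summed over the 6 listed miRNAs with this seed, miR-16-5p supplied 86.6% to 88.1% of reads in fl/fl MEF, 81.0% to 81.5% in OV and 76.8% to 79.0% in d/d. The 3 groups did not overlap. miR-15b-5p supplied 7.92% ± 0.72 in fl/fl, 10.9% ± 0.58 in OV and 11.6% ± 0.70 in d/d (SD, n = 3 each), and miR-322-5p 1.74% ± 0.06, 4.36% ± 0.35 and 4.80% ± 0.24. The chromosome 11 strands stayed small, miR-195a-5p at 0.932% ± 0.230, 1.40% ± 0.10 and 2.12% ± 0.48 and miR-497a-5p at 0.557% ± 0.105, 0.724% ± 0.270 and 1.26% ± 0.23 in the same order. These shares are given as a description with no test, and they sum to a fixed total, so a lower share of miR-16-5p raises the others.

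In the second MEF set miR-16-5p supplied 75.5% ± 1.1 with the empty plasmid and 74.5% ± 0.40 with miR-290~295. The share of miR-195a-5p was 2.32% ± 0.25 and 4.60% ± 0.50, that of miR-497a-5p 1.17% ± 0.22 and 2.17% ± 0.07, and neither overlapped between groups. In B cells miR-16-5p supplied 84.2%, 83.2% and 84.7% in d/d, fl/fl and OV, and miR-15a-5p 4.16%, 4.58% and 4.07%, above its 1.05% to 2.5% in the first MEF set. The whole pool came to 225 ± 31 RPM in fl/fl MEF, 247 ± 88 in OV and 178 ± 39 in d/d, and these groups overlapped. It came to 234 ± 26 in Empty and 202 ± 26 in miR-290~295 MEF, and to 1272, 854 and 731 in d/d, fl/fl and OV B cells.

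**Figure D3:**
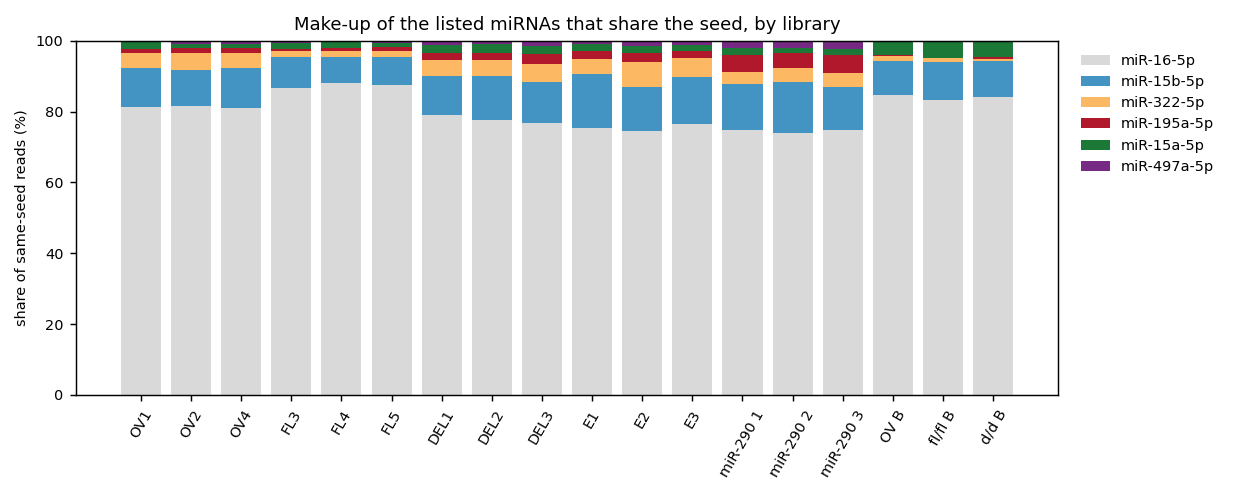
Share of reads, in percent, that each of the 6 listed miRNAs with the shared seed supplies in every library; each bar is 1 library and sums to 100%, and libraries ending in B are B cells. The miR-16-5p block is tallest in FL3 to FL5 (86.6% to 88.1%) among MEF libraries, and the miR-195a-5p block is widest in the libraries with miR-290~295.

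miR-322-5p, the same-seed miRNA outside the family, and miR-503-5p, its cluster neighbour, are given for the seed they share or nearly share. miR-322-5p rose in OV by 1.35 (SE 0.21, adjusted p = 0.00204) and in d/d by 0.97 (SE 0.21, adjusted p = 0.00270), and fell with miR-290~295 by 0.81 (SE 0.25, adjusted p = 0.0294). The d/d call was lost with spike-in scaling (0.55, adjusted p = 0.0542). The miR-290~295 call was lost without the trend (adjusted p = 0.0529) and without E2, E3 or the first or the third library with miR-290~295 (adjusted p 0.0675 to 0.114). miR-503-5p rose in OV by 1.10 (SE 0.17, adjusted p = 0.00180), and its d/d difference was 0.28 (adjusted p = 0.180). The remaining strands of the family's loci did not pass in the main fit of any of the 4 comparisons. The differences were -0.16 to 0.34 for miR-15a-3p and 0.18 to 0.50 for miR-497b, read from the strand opposite Mir497. miR-497b passed in OV against d/d with spike-in scaling (0.84, adjusted p = 0.0289) and with miR-290~295 by DESeq2 (0.52, adjusted p = 0.0395).

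Ratios within a library also cancel the scaling, and 6 were compared in the 4 MEF contrasts with a two-sided exact permutation test of the log2 ratio. With 3 libraries against 3 the smallest p is 0.1, or 0.3 after adjustment over the 24 tests, so none could pass. Groups did not overlap for 1 of 6 ratios in OV against fl/fl, 2 in d/d against fl/fl, 3 in OV against d/d and 2 in miR-290~295 against Empty. For single miRNAs the share of groups without overlap was 48.6%, 68%, 58.2% and 49.6% in these comparisons.

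The 2 strands of the miR-15b hairpin had ratios that separated some groups of libraries, with no test that could pass. The ratio of miR-15b-3p to miR-15b-5p was 2.04 to 2.36 in fl/fl, 1.68 to 2.35 in OV and 1.44 to 1.60 in d/d. The log2 ratio differed by -0.51 in d/d against fl/fl (exact p = 0.1, adjusted p = 0.3), with all 3 d/d libraries under the 6 others. With the plasmids it was 1.07 to 1.33 in Empty and 1.36 to 1.71 with miR-290~295 (log2 difference 0.26, exact p = 0.1), and in B cells 0.999, 0.872 and 0.896 in d/d, fl/fl and OV. The 3p strand had more reads than the 5p strand in all 15 MEF libraries and fewer in the 3 B-cell libraries, by only 1 read in d/d (1363 against 1364).

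Between the 2 hairpins on chromosome 3, the ratio of miR-16-2-3p to miR-15b-3p was 0.125 to 0.149 in d/d, above 0.0868 to 0.105 in fl/fl and 0.0588 to 0.104 in OV. The log2 difference was 0.55 for d/d against fl/fl and -0.69 for OV against d/d (exact p = 0.1 each). miR-16-2-3p itself did not pass in either comparison.

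Between the 2 miR-15 loci, the ratio of miR-15a-5p to miR-15b-5p was 0.0919 to 0.167 in OV, below 0.169 to 0.206 in fl/fl and 0.201 to 0.216 in d/d. The log2 differences of OV were -0.57 from fl/fl and -0.74 from d/d (exact p = 0.1, adjusted p = 0.3 each). In B cells this ratio was 0.411, 0.418 and 0.423 in d/d, fl/fl and OV, close to each other and above all 15 MEF libraries (0.0919 to 0.216).

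The passenger strands of the 2 miR-16 loci differed widely in reads. miR-16-1-3p exceeded miR-16-2-3p 29.1- to 106-fold in MEF and 51.5- to 79.2-fold in B cells, and no group stood apart. miR-16-1-3p also exceeded miR-15a-5p from the same locus 29.9- to 90.6-fold in MEF and 11.1- to 18-fold in B cells. Its ratio to miR-16-5p, which sums both loci, was 0.671 to 2.64 in MEF and 0.546 to 0.882 in B cells, a ratio added after the values were seen. Reads of different strands are captured with unequal efficiency by ligation-based libraries, so these ratios compare libraries and are not amounts of RNA per strand. The ratio of miR-16-1-3p to miR-15a-5p was 48.5 to 64.6 in Empty and 74.9 to 76.9 with miR-290~295 (log2 difference 0.41, exact p = 0.1). The ratio of miR-497a-5p to miR-195a-5p overlapped in all 4 comparisons.

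**Figure D4:**
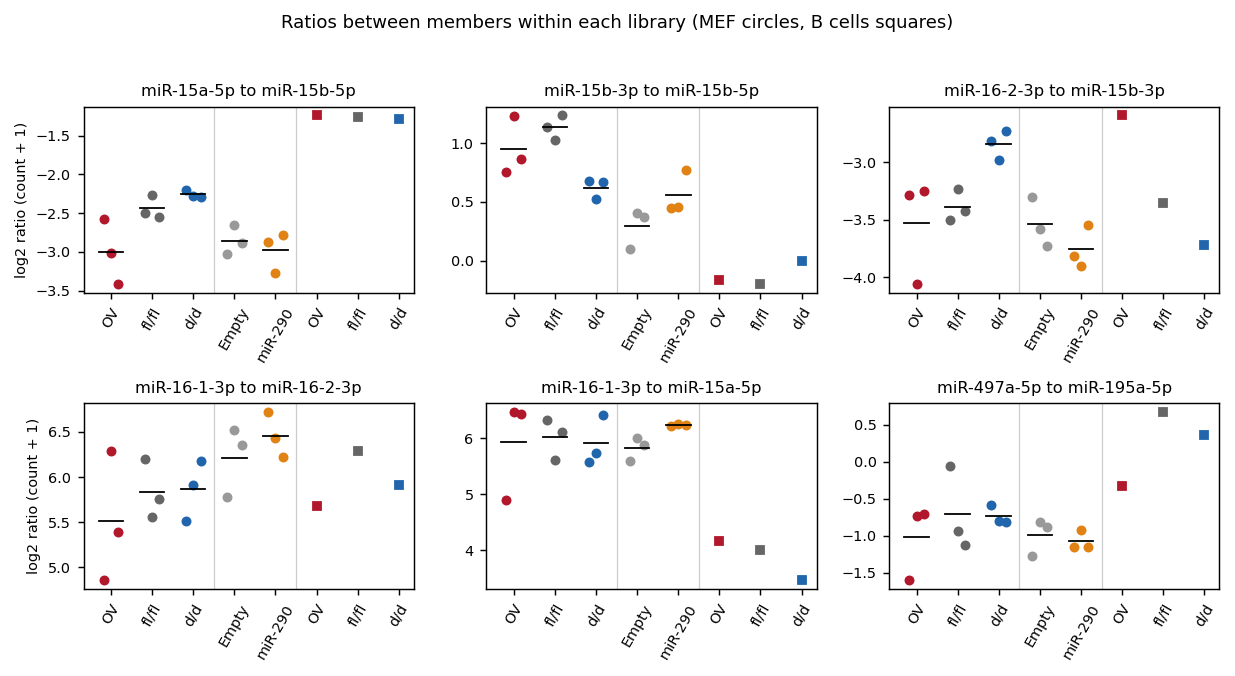
Log2 ratios between family members within each library, by group; circles are MEF, squares are B cells, black lines are means of 3 libraries, and 1 was added to each normalised count. The miR-15b-3p to miR-15b-5p ratio is lower in the 3 d/d than in the 3 fl/fl libraries, and the miR-15a-5p to miR-15b-5p ratio is highest in B cells.

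In B cells the 6 members from chromosomes 14 and 3 were within 2-fold of fl/fl in both other libraries, but the direction in OV depended on the scaling. miR-16-5p was at 8997, 7109 and 8466 normalised counts in d/d, fl/fl and OV, with 95% Poisson intervals of 8832 to 9164, 6950 to 7271 and 8259 to 8678 that cover counting error only. That is 1.27-fold higher in d/d and 1.19-fold higher in OV than in fl/fl. miR-15a-5p (445, 391 and 407), miR-15b-5p (1083, 937 and 963) and miR-15b-3p (1082, 817 and 863) differed from fl/fl by at most 1.32-fold. miR-16-1-3p was 1.28-fold lower in d/d (4915 against 6273) and 1.17-fold higher in OV (7318). miR-16-2-3p was 1.78-fold higher in OV, on 106 reads against 84. Scaling by library totals in place of size factors, an alternative added after the values were seen, shifts log2 differences by -0.45 in OV and 0.25 in d/d. The RPM differences were also taken without the added 1, so those of rare members moved by other amounts. For miR-497a-5p in OV the log2 difference went from -1.13 to -1.66. In RPM miR-16-5p was at 1072, 711 and 619 in d/d, fl/fl and OV, which is 1.51-fold higher in d/d and 1.15-fold lower in OV. miR-16-1-3p was at 586, 627 and 535, now 1.17-fold lower in OV, and miR-15b-3p at 129, 81.7 and 63.1. The sign of the OV difference turned for 5 of the 8 members and that of the d/d difference for 0. With 1 library per group these values compare libraries and carry no test.

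A difference of at least 2-fold from fl/fl was reached by 1 member in OV and 2 members in d/d, beside 12.6% (6.3% higher and 6.3% lower) and 34.2% (16.2% higher and 18.1% lower) of the 476 miRNAs kept. miR-195a-5p was at 40.5 (30.1 to 53.2), 13.2 (7.22 to 22.1) and 12.1 (5.51 to 22.9) in d/d, fl/fl and OV, which is 2.92-fold higher in d/d, on 51 reads against 14. miR-497a-5p was at 52.4 (40.5 to 66.7), 21.7 (13.7 to 32.5) and 9.38 (3.77 to 19.3), which is 2.35-fold higher in d/d and 2.19-fold lower in OV. The Poisson intervals of d/d and fl/fl did not overlap for either strand, whereas those of OV and fl/fl did. In RPM, without the added 1, the same members were past 2-fold, miR-195a-5p 3.66-fold and miR-497a-5p 2.88-fold higher in d/d and miR-497a-5p 3.16-fold lower in OV.

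The d/d B-cell library also held more of the fibroblast markers. All 7 of 7 were listed, and they summed to 9549 normalised counts in d/d, against 2668 in OV and 2725 in fl/fl. In d/d 6 of the 7 were at least 2-fold above fl/fl, with miR-143-3p at 5266 against 1303 and miR-199a-3p at 1496 against 341, while miR-196a-5p was at 164 against 255. Of the 2 listed muscle markers miR-206-3p was higher (179 against 39.6) and miR-1a-3p lower (4.76 against 16.03). The neural miR-9-5p was far lower (1132 against 16620) and miR-128-3p was not (58579 against 46741), and the lymphocyte miR-150-5p was lower. In RPM, miR-195a-5p in d/d B cells (4.82) was within its range in MEF (1.34 to 9.65) and miR-497a-5p (6.24) above its own (1.20 to 4.84), and the part of the markers in these differences was not tested. In bulk samples, a different share of cells of a type and a different RNA level per cell cannot be told apart.

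**Figure D5:**
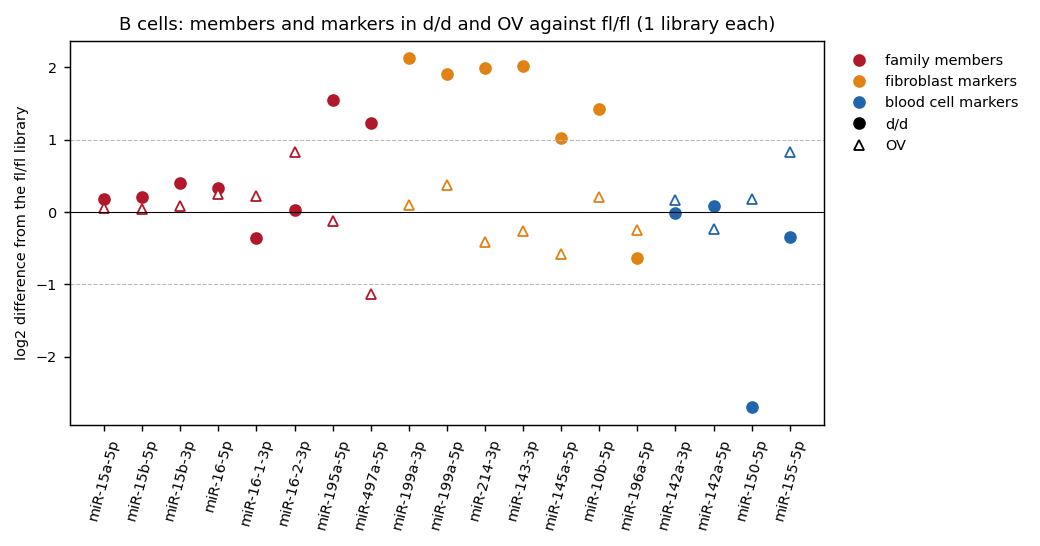
Log2 difference from the fl/fl B-cell library of the 8 members, 7 fibroblast markers and 4 blood cell markers, in d/d (filled circles) and OV (open triangles), 1 library each; dashed lines mark 2-fold. miR-195a-5p (1.55) and miR-497a-5p (1.24) are the members past 2-fold in d/d, beside 6 of the 7 fibroblast markers.

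Across the 9 libraries of the first MEF set, pairs of members varied together to different degrees, given as Pearson's r of log2 values that share depth and scaling. miR-16-5p had an r of 0.86 with miR-15b-3p and 0.64 with miR-15b-5p from the Smc4 locus, 0.38 with miR-15a-5p and -0.75 with miR-16-1-3p from the Dleu2 locus. The chromosome 11 neighbours miR-195a-5p and miR-497a-5p had an r of 0.51.

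Outside the family, the 3 miRNAs most like each 5p member were sought among 372 non-members with a mean of at least 100, over the same 9 libraries. miR-16-5p was most like miR-151-5p (0.98), miR-361-5p (0.96) and miR-106b-5p (0.92). miR-497a-5p was most like miR-335-3p (0.98), miR-195a-3p (0.94), the other strand of the neighbouring hairpin, and miR-351-3p (0.93). miR-195a-5p was nearest to miR-298-5p (0.82), miR-322-5p (0.80) and miR-467e-5p (0.75). miR-15b-5p was nearest to miR-574-5p (0.89), miR-29b-3p (0.83) and miR-301a-3p (0.79), and miR-15a-5p to both strands of miR-22 (0.87 and 0.75) and miR-350-3p (0.82). The highest of so many values is large by selection, and these are descriptions.

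The family is 1 of several groups of miRNAs that MYC is known to repress, and 28 others, of the let-7, miR-26, miR-29, miR-30, miR-34 and other families, were listed for comparison. In d/d against fl/fl, 21 of the 27 tested fell and 0 rose, with a median log2 difference of -0.61, beside 1 of 8 family members lower and 1 higher and a median of 0.13. Over all miRNAs tested, 27.6% were lower and 30.7% higher in that comparison. In OV against d/d 19 were higher and 1 lower (median 0.62), beside 26.7% higher and 25.7% lower over all miRNAs tested. miR-30b-5p (-1.47, SE 0.29, adjusted p = 0.00154) and miR-30c-5p (-1.20, SE 0.13, adjusted p = 2.78e-05) fell most in d/d, so that miR-16-5p (-0.64) was near the list's median and the other 7 members were above it. In OV against fl/fl 3 were higher and 3 lower (median -0.07). These 6 of 27 were a smaller share than the 31.3% over all miRNAs tested (15.6% higher and 15.7% lower). Of the list, miR-146a-5p, which restrains inflammatory signalling, was higher by 1.51 (SE 0.15, adjusted p = 9.72e-05) and miR-99a-5p was lower (-1.26, SE 0.13, adjusted p = 0.000109). The count of 6 was 3 without OV2 and 2 without FL4 or FL5.

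With miR-290~295, 4 of the 28 rose and 4 fell (median -0.07). These 8 were a smaller share than the 38.9% over all miRNAs tested (16.7% higher and 22.3% lower). miR-98-5p, of the let-7 family, rose by 0.57 (SE 0.13, adjusted p = 0.00939). miR-146a-5p fell by 2.19 (SE 0.20, adjusted p = 6.27e-05) and miR-34a-5p, a p53 target, by 0.90 (SE 0.24, adjusted p = 0.0156). The count of 8 was 4 without E2 or the first library with miR-290~295 and 5 without the third. With spike-in scaling 0 of the 28 were higher and 14 lower, beside 56 higher and 331 lower of all 846 miRNAs tested.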

How the data were processed

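Mature miRNAs were measured by small RNA sequencing. Per the labels' protocols, total RNA with spike-ins was gel purified for small RNAs and made into libraries with the NEBNext small RNA kit. The authors deposited signal values, in which the reads of a library share a single divisor, and the submitters' processing notes list DESeq2 with no version. Aligner, annotation and build: not given in the sources used here. Whole reads were recovered from the deposited values by the smallest step in each library, with 100% of values whole within 0.0001. Of the columns, 33 of transformed values were not used. The tables without spike-in scaling were the main ones. The OV and fl/fl MEF columns name the group but not the labels' replicate.

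Log2(value + 1) of miRNAs with a mean of at least 10 (662, 840 and 476 in the 3 sets, all 8 members included) was fitted with limma 3.58.1 (R 4.3.3) with a mean-variance trend over all libraries of a MEF set, with Benjamini-Hochberg adjustment over all miRNAs tested and a threshold of 0.05. Fold changes are on that log scale and understate changes of rare miRNAs. Alternatives used edgeR 4.0.16 and DESeq2 1.42.0 on recovered reads, the spike-in tables, re-centred medians, pseudocounts of 0.5 and 5, no minimum and a minimum of 100, fits without each library and, in B cells, library totals. The code was tested on simulated data, where limma recovered 100% (OV against fl/fl, 649 miRNAs) and 99.0% (miR-290~295 against Empty, 828 miRNAs) of changed miRNAs at a log2 change of 1.5, with 7.58% and 3.05% of calls false. The simulated spread was the same for every miRNA. This check of the code gives no recovery rate for the smaller differences of the members. The 8 members and the lists were chosen with earlier results of these data known. Named miRNAs were the members, other strands of their hairpins, miRNAs with the same or a near seed, the 3 most alike per 5p member and the extremes of the MYC list. Replicate numbers in the second MEF set did not pair the libraries.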

Additional observations from a re-analysis of the deposited data

Results flagged for a closer look

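miR-15b-3p differed from fl/fl in opposite directions in the 2 cell types. In MEF all 3 d/d libraries lay below all 3 fl/fl libraries (log2 difference -0.43, adjusted p = 0.0529), and in B cells the single d/d library lay above the single fl/fl library by 0.40. The difference between the cell types was not tested.

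miR-16-5p did likewise. It fell by 0.64 in d/d MEF (limma, adjusted p = 0.0370) and was 0.34 higher on the log2 scale in the d/d B-cell library, and the difference between the cell types was not tested. Each B-cell value rests on 1 library.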

How the results depend on the processing

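Among the alternative values of the members in MEF, 491 kept the direction and the side of the threshold, 31 newly passed, 15 no longer passed and 35 changed sign, none of them from a called value. No cause was tested unless named. With spike-in scaling 3 members passed in OV against d/d and 6 with miR-290~295, and with re-centred medians 3 and 3. Members passing in OV against d/d were 2 by edgeR and 2 by DESeq2, and with miR-290~295 2 by DESeq2. For d/d against fl/fl they were 1 with no minimum, where more miRNAs are tested, 1 without the trend and 4 when the 2 groups were fitted alone. Leaving out libraries gave 0 to 1 members in OV against fl/fl, 0 to 3 in d/d against fl/fl, 1 to 3 in OV against d/d and 1 to 2 with miR-290~295, and 124 to 233 of all miRNAs in OV against fl/fl.

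None of the MEF values that changed sign had passed, and none passed afterwards. In OV against fl/fl, miR-15a-5p was 0.073 with spike-in scaling, 0.14 by edgeR and 0.064 by DESeq2, and miR-16-5p 0.078 with spike-in scaling and 0.019 by edgeR. In d/d against fl/fl the values with spike-in scaling and with re-centred medians were -0.17 and -0.029 for miR-15a-5p, -0.35 and -0.21 for miR-15b-5p, -0.29 and -0.14 for miR-16-1-3p, -0.31 and -0.17 for miR-16-2-3p, -0.14 and -0.029 for miR-15a-3p, -0.15 and -0.0048 for miR-503-5p, and -0.23 and -0.11 for miR-497b. In OV against d/d spike-in scaling gave 0.24 for miR-15a-5p, 0.27 for miR-16-1-3p, 0.50 for miR-195a-5p, 0.22 for miR-497a-5p and 0.32 for miR-195a-3p, and miR-195a-5p was 0.10 with re-centred medians and 0.024 by edgeR. A pseudocount of 5 gave -0.0014 for the log2 ratio of miR-16-1-3p to miR-15a-5p in OV against d/d.

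Leaving out libraries changed the sign of differences near 0. In OV against fl/fl the ranges were -0.52 to 0.21 (miR-15a-5p), -0.30 to 0.16 (miR-16-5p), -0.089 to 0.56 (miR-16-2-3p) and -0.19 to 0.80 (miR-15a-3p). In d/d against fl/fl they were -0.043 to 0.22 (miR-15b-5p), -0.0058 to 0.19 (miR-16-2-3p), -0.27 to 0.72 (miR-15a-3p) and -0.020 to 0.38 (miR-497b). In OV against d/d they were -0.20 to 0.45 (miR-16-2-3p), -0.23 to 0.14 (miR-195a-5p), -0.14 to 0.28 (miR-15a-3p) and -0.53 to 0.048 (miR-195a-3p). With miR-290~295 they were -0.17 to 0.030 (miR-15b-3p), -0.25 to 0.066 (miR-16-1-3p) and -0.34 to 0.12 (miR-15a-3p).

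For log2 ratios the ranges were -0.22 to 0.028 for miR-15a-5p to miR-15b-5p with miR-290~295, -0.71 to 0.0043 and -0.12 to 0.21 for miR-16-1-3p to miR-16-2-3p in OV and d/d against fl/fl, and -0.29 to 0.12 for miR-16-2-3p to miR-15b-3p in OV against fl/fl. For miR-16-1-3p to miR-15a-5p they were -0.36 to 0.43 in OV against fl/fl, -0.36 to 0.055 in d/d against fl/fl and -0.25 to 0.54 in OV against d/d. For miR-497a-5p to miR-195a-5p they were -0.51 to 0.023 for OV and -0.24 to 0.30 for d/d with fl/fl as the reference, -0.43 to 0.019 in OV against d/d, and -0.23 to 0.0067 with miR-290~295.

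No paired analysis was possible because the OV and fl/fl columns of the first MEF set carry no replicate numbers of the labels. In the second set a replicate block gave 298 miRNAs and 1 member in place of 327 and 1, and same-numbered libraries had correlations of 0.28, 0.01 and -0.26, so the numbers are not taken as pairs. Low reads limit the chromosome 11 strands, with 7 to 66 reads of miR-497a-5p in B cells and 21 to 59 in the first MEF set. In B cells scaling by library totals turned the OV difference to -0.39 for miR-15a-5p, -0.41 for miR-15b-5p and -0.37 for miR-15b-3p. For miR-16-5p it became -0.20 and for miR-16-1-3p -0.23. With size factors the d/d and fl/fl Poisson intervals of miR-15b-5p, miR-15b-3p, miR-16-5p and miR-16-1-3p already did not overlap. Library totals moved the d/d difference from 0.21 to 0.46 for miR-15b-5p and from 0.40 to 0.66 for miR-15b-3p. They moved it from 0.34 to 0.59 for miR-16-5p and from -0.35 to -0.10 for miR-16-1-3p. This scaling and the counts for the MYC-repressed list under other settings were added after the data were seen.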
